A study of Mus musculus with 6 samples.

Results

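Prox1, C1ql2, C1ql3, Lct, Tdo2, Dsp, Glis3 and Calb1 are genes used as markers of dentate granule cells, the principal neurons of the dentate gyrus of the hippocampus. These 8 genes were picked by name out of the 41386 genes of the deposited mouse table, with their difference between ischemia/reperfusion and sham hippocampus already known from these libraries. Their values in that contrast are therefore given as a description, without a test. All 8 passed the filter on low counts.

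RNA-seq was carried out on hippocampi of C57BL/6 mice aged 56 days, in 2 groups of 3 libraries. In the I/R group the middle cerebral artery was occluded for 1.5 h with a filament and the brain was reperfused for 24 h. The sham group had the same operation without insertion of the filament, so anaesthesia and surgery were common to both groups. Per the study's methods the mice were adult males of the substrain C57BL/6J, where the labels give C57BL/6, the left side was occluded, the ipsilateral hippocampus was taken, and several hippocampi were pooled, so the replicate spread below is a spread between pools, and nothing in it separates one mouse from another. The labels name no transgene or deletion in either group.

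Granule cells receive the main cortical input to the hippocampus and send their axons, the mossy fibres, to the pyramidal cells of CA3. They are among the few neurons of the mouse brain that are still produced in adult life, from progenitors in the subgranular zone. Prox1 is a homeobox transcription factor that sets and holds granule cell identity, and Glis3 is a zinc finger transcription factor best known from pancreatic beta cells. C1ql2 and C1ql3 are secreted proteins with a C1q domain that sit at mossy fibre synapses, and Calb1 (calbindin) is a cytoplasmic calcium-binding protein. Dsp (desmoplakin) ties desmosomes to intermediate filaments, while Lct (lactase) and Tdo2 (tryptophan dioxygenase) are enzymes best known from intestine and liver. Several of these genes are not exclusive to granule cells: calbindin is also made by CA1 pyramidal cells and interneurons, and Prox1 by some interneurons.

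Totals over genes ran from 37493042 to 44788547 counts per library. Markers of hippocampal pyramidal cells were present in all libraries. Choroid plexus tissue was unevenly included: Ttr, its most abundant transcript, had 810 counts in I/R replicate 3 and 385 in sham replicate 1, against 68521 to 140679 in the other 4 libraries. The summed level of the 10 choroid plexus markers in CPM (counts scaled to a common library size) was 141 to 4923 over the I/R libraries and 173 to 6276 over the sham libraries.

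The promoters of the members with the lowest remaining share of the sham level (Lct, Tdo2 and Dsp) and of the member that was higher in I/R (Glis3) are shown to set the sequence beside the values below. Each is the stretch of 100 bases just before the RefSeq start, 5′ to 3′ on the gene's strand, in build GRCm38.p6, with CpG dinucleotides in capitals. The stretches are chr1:128328319-128328418, minus strand, for Lct, chr3:81975729-81975828, minus strand, for Tdo2, chr13:38151194-38151293, plus strand, for Dsp and chr19:28680078-28680177, minus strand, for Glis3.
Lct: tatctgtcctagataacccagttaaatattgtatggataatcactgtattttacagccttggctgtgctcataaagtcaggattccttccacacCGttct
Tdo2: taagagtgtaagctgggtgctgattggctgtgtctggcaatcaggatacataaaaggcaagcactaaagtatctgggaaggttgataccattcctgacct
Dsp: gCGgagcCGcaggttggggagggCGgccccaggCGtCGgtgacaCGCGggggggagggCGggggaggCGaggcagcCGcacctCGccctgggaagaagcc
Glis3: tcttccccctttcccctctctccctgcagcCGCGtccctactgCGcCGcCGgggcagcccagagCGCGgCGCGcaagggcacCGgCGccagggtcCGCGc

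Over the whole window of 300 bases (250 before the start to 50 after), the Lct promoter held 1 CpG and the Tdo2 promoter 4, against a median of 7 in 32851 mouse promoter windows. Dsp held 27 and Glis3 32, more than 84.5% and 90.5% of all windows. The windows of Prox1, C1ql2 and C1ql3 were also rich in CpG, with 25, 23 and 25, and a second Prox1 window held 14. The 2 CpG-poor promoters thus belonged to the enzymes, and the promoters of the other 5 matched members were above the median.
Of 4 motifs searched on both strands, the TATA motif TATAAA was found in Prox1 and Tdo2 and in 13.6% of all windows. The E-box CANNTG was found in 6 of the 7 matched genes, the exception being Tdo2, and in 72.3% of all windows. The motifs TGANTCA and TGACGTCA were found in no member window and in 7.81% and 1.79% of all windows. None of the 4 motifs contains another, and a match describes letters in a window only.

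Between I/R and sham, 7 of the 8 genes had lower levels in I/R and Glis3 had a higher one, and the groups did not overlap for any of the 8. Across all 18569 genes tested, 57.4% also had groups that did not overlap, with 28.1% lower and 29.3% higher in every I/R library. The call used throughout was an adjusted p under 0.05 (edgeR's quasi-likelihood test, Benjamini-Hochberg over all genes tested) with a fold over 1.2. By that rule 7 members were called lower, where the background was 19.9% of all genes, and Glis3 was called higher, where it was 21.8%. In either direction 8 of 8 were called against 41.8% of all genes, and 4 were called lower at a fold over 2 against 4.67%. Nothing is read from these counts, because the members were chosen with this contrast known. The median log2 fold change (I/R minus sham) was -1.17 over the members and 0.03 over all genes tested. Without sham replicate 1 or without sham replicate 2, 4 members were called lower, C1ql2, C1ql3 and Calb1 no longer being called. Without the filter on low counts, the calls of C1ql2, C1ql3, Calb1 and also Lct were lost. C1ql3 lost its call in further runs, among them those without I/R replicate 2 or sham replicate 3. In whole tissue, fewer granule cells and less RNA of these genes per cell cannot be told apart.

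**Figure D1:**
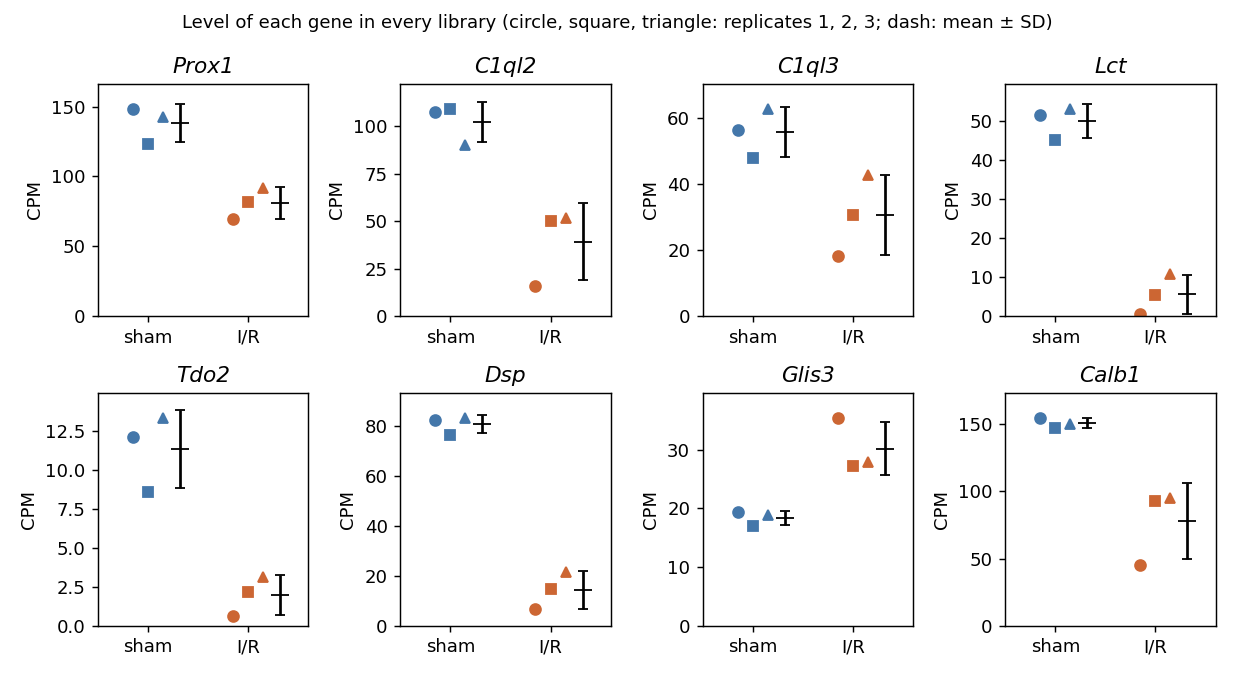
Level of each of the 8 genes in CPM (y axis, starting at 0, a separate scale for each gene) in the 3 sham (blue) and 3 I/R (orange) libraries. Circles, squares and triangles are replicates 1, 2 and 3 and the black marks are the mean ± SD. The orange points lie below the blue points for 7 genes and above them for Glis3, and the orange circle is the lowest point in those 7 panels.

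The transcription factor Prox1 (MGP_BALBcJ_G0016868, chromosome 1, 189678274 to 189731303, minus strand in the coordinates of the file) had 5802, 5005 and 4916 counts in sham replicates 1, 2 and 3. After I/R the counts were 3155, 3265 and 3672 in the same order of replicates. The I/R libraries were close to each other, and even the highest of them stayed under the lowest sham library. Mean levels were 138 ± 13.4 CPM for sham and 80.9 ± 11.3 CPM for I/R (SD, n = 3 each), and the fitted log2 difference, I/R minus sham, was -0.77 (SE 0.12). On log2(FPKM + 1) it was -0.50. Prox1 kept 50.2%, 59.1% and 66.4% of the sham mean in I/R replicates 1, 2 and 3, the smallest loss in replicate 1 of any of the 7 lower genes. An antisense gene, Prox1os, overlaps it and had 97 to 197 counts per library, and since the use of strand in counting was not given, reads of this pair cannot be told apart.

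Glis3 (MGP_BALBcJ_G0024987, chromosome 19, 25332326 to 25763908, minus strand) went the other way. It had 755, 694 and 649 counts in sham replicates 1, 2 and 3, compared with 1613, 1089 and 1116 in those of I/R. The groups were fully apart, and I/R replicate 1, the lowest library for the other 7 genes, was the highest for Glis3. Mean levels were 18.4 ± 1.19 CPM for sham and 30.2 ± 4.55 CPM for I/R (SD, n = 3 each), and the fitted log2 difference, I/R minus sham, was 0.71 (SE 0.13). Its levels in I/R were 192%, 148% and 151% of the sham mean. As a marker Glis3 did not follow the rest of the set in these libraries. In its transcripts, 0.329% of stretches of 50 bases were shared with another gene, and for the other 7 members none were.

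The synaptic protein gene C1ql2 (MGP_BALBcJ_G0016349, chromosome 1, 118986743 to 118989333, plus strand) had 4199, 4441 and 3104 counts in sham replicates 1, 2 and 3, compared with 722, 2010 and 2060 in those of I/R. I/R replicate 1 stood well below the other I/R libraries, which were alike. Mean levels were 102 ± 10.5 CPM for sham and 39.2 ± 20.2 CPM for I/R (SD, n = 3 each), and the fitted log2 difference, I/R minus sham, was -1.39 (SE 0.38). Leaving out I/R replicate 1 gave -1.01 for this difference.

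Its relative C1ql3 (MGP_BALBcJ_G0025326, chromosome 2, 10069824 to 10078170, minus strand) had 2200, 1942 and 2163 counts in sham replicates 1, 2 and 3, compared with 835, 1229 and 1705 in those of I/R. The I/R libraries were spread out, and I/R replicate 3 came near the lowest sham library. Mean levels were 55.7 ± 7.56 CPM for sham and 30.6 ± 12.1 CPM for I/R (SD, n = 3 each), and the fitted log2 difference, I/R minus sham, was -0.87 (SE 0.27). With 76.6% of the sham mean, I/R replicate 3 kept more of C1ql3 than of any other lower member. Unnamed genes on the opposite strand overlap C1ql3, with 77 to 158 and 30 to 44 counts per library.

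The calcium-binding protein gene Calb1 (MGP_BALBcJ_G0028041, chromosome 4, 12371510 to 12398824, plus strand) had 6041, 5988 and 5160 counts in sham replicates 1, 2 and 3, compared with 2050, 3702 and 3817 in those of I/R. The sham libraries were almost level, whereas I/R replicate 1 was far below the other I/R libraries. Mean levels were 151 ± 3.75 CPM for sham and 77.7 ± 28.3 CPM for I/R (SD, n = 3 each), and the fitted log2 difference, I/R minus sham, was -0.96 (SE 0.25). In I/R replicates 1, 2 and 3 Calb1 stood at 29.9%, 61.5% and 63.3% of the sham mean.

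Dsp, the desmosome protein gene (MGP_BALBcJ_G0020420, chromosome 13, 35419737 to 35467881, plus strand), had 3219, 3111 and 2862 counts in sham replicates 1, 2 and 3, compared with 301, 591 and 864 in those of I/R. Every I/R library was far below every sham library. Mean levels were 80.7 ± 3.64 CPM for sham and 14.3 ± 7.51 CPM for I/R (SD, n = 3 each), and the fitted log2 difference, I/R minus sham, was -2.50 (SE 0.36). The shares of the sham mean were 8.19%, 18.3% and 26.8%.

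Lct (MGP_BALBcJ_G0016371, chromosome 1, 126993969 to 127038090, minus strand) had the lowest log2 fold change of the 8 genes. It had 2018, 1838 and 1833 counts in sham replicates 1, 2 and 3, compared with 32, 219 and 431 in those of I/R. The sham libraries were alike, while the I/R libraries differed from each other more than for any other member. Mean levels were 50.1 ± 4.26 CPM for sham and 5.65 ± 5.04 CPM for I/R (SD, n = 3 each), and the fitted log2 difference, I/R minus sham, was -3.15 (SE 0.74). The I/R libraries kept 1.40%, 10.9% and 21.5% of the sham mean, so that replicate 3 was 15.3-fold above replicate 1. The 32 counts of I/R replicate 1 carry an exact Poisson 95% interval of 21.9 to 45.2, which covers counting error only and does not reach the 219 counts of replicate 2. Leaving out I/R replicate 1 moved this difference to -2.62, and leaving out I/R replicate 3 moved it to -4.07.

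Tdo2, the enzyme gene of tryptophan breakdown (MGP_BALBcJ_G0027296, chromosome 3, 79145322 to 79164908, minus strand), had the fewest counts of the 8 genes. It had 473, 348 and 459 counts in sham replicates 1, 2 and 3, compared with 27, 86 and 126 in those of I/R. The order of the I/R libraries was the one seen for Lct and Dsp, and no I/R library came near sham. Mean levels were 11.3 ± 2.48 CPM for sham and 1.97 ± 1.29 CPM for I/R (SD, n = 3 each), and the fitted log2 difference, I/R minus sham, was -2.53 (SE 0.50). I/R replicate 3 was 5.31-fold above replicate 1, and the 27 counts of replicate 1 have an exact Poisson 95% interval of 17.8 to 39.3.

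**Figure D2:**
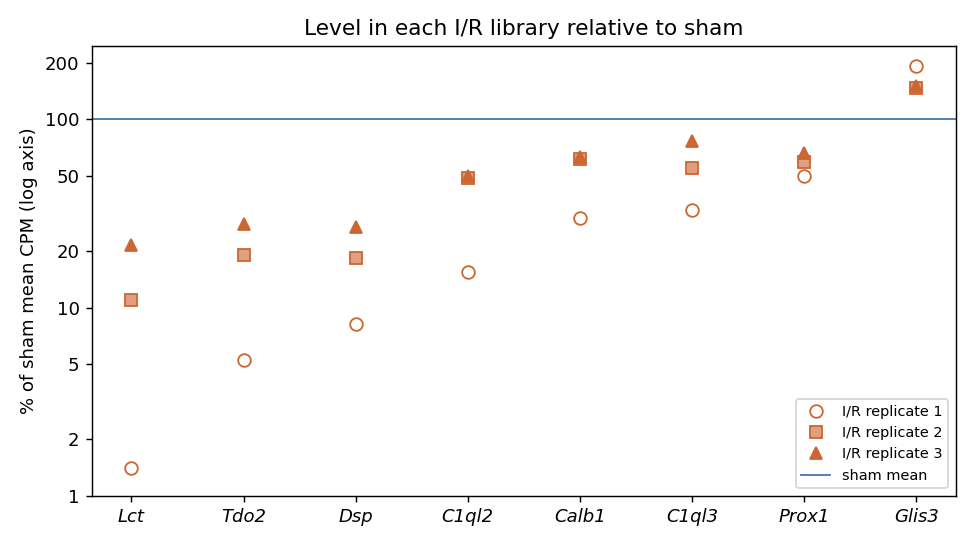
Level in each I/R library as a percentage of the mean of the 3 sham libraries (y axis, log scale; blue line, the sham mean at 100%) for each of the 8 genes. Open circles, squares and triangles are I/R replicates 1, 2 and 3. Lct, Tdo2 and Dsp lie lowest, from 1.40% to 27.8%, and replicate 1 is the lowest point for every gene but Glis3.

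The I/R libraries thus had one order for the 7 lower genes, with replicate 1 lowest and replicate 3 highest in 7 of 7. The median share of the sham mean over these 7 genes was 15.5% in I/R replicate 1, 49.1% in replicate 2 and 50.3% in replicate 3. This order was common outside the members too: of all genes called lower, 54.6% had the same order of the I/R libraries. The coefficient of variation between libraries was larger in I/R than in sham for 8 of 8 genes, with 13.9% to 89.1% in I/R and 2.49% to 21.9% in sham.

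Levels between genes were compared per transcript length, on the FPKM values that the authors deposited (fragments scaled for transcript length and depth). In sham, Calb1 was highest with 73.5 ± 2.31 FPKM, followed by C1ql2 with 46.9 ± 4.70, Prox1 with 26.5 ± 2.74 and C1ql3 with 20.1 ± 2.84 (SD, n = 3 each). Lower levels were found for Lct with 13.5 ± 1.24 FPKM, Dsp with 12.4 ± 0.646, Glis3 with 7.5 ± 0.539 and Tdo2 with 6.58 ± 1.48. The sham libraries of Lct and Dsp overlapped in range, as did those of Glis3 and Tdo2, so the order within these pairs was not resolved.
In I/R, Calb1 remained highest with 44.7 ± 14.8 FPKM, and Glis3 with 14.7 ± 2.95 now stood among C1ql2 (21.1 ± 10.4), Prox1 (18.4 ± 1.86) and C1ql3 (13.0 ± 4.76), all overlapping their neighbours (SD, n = 3 each). Dsp with 2.60 ± 1.29 FPKM, Lct with 1.77 ± 1.56 and Tdo2 with 1.33 ± 0.849 formed a lower group whose neighbours also overlapped. Lct, above Dsp and Glis3 in the mean sham level, was below both in the mean I/R level, although the I/R libraries of Lct and Dsp overlapped.

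A list of 15 other genes enriched in granule cells was set beside the members. Of these, 14 were measured and tested, and 10 fell in I/R while none rose, against a background of 19.9% called lower. The lists here and below were chosen with earlier results of these data known, so their counts are given as a description. Where a list here or below had none that rose, edgeR and DESeq2 both called 0 higher, and 0 had an unadjusted p under 0.05 in that direction, except for 1 gene of tryptophan breakdown. Pdyn, which encodes the opioid precursor prodynorphin of mossy fibres, fell by 2.33 on the log2 scale (SE 0.16, edgeR adjusted p = 0.000215). Plk5, a polo-like kinase family gene, fell by 2.20 (SE 0.41, adjusted p = 0.00451). Gabrd, the delta subunit of extrasynaptic GABA-A receptors, fell by 1.44 (SE 0.19, adjusted p = 0.00123). These 3 calls held under every alternative run.
Within this list Pdyn did not share the spread of the members: it had 12.6, 12.8 and 15.8 CPM in the sham libraries and 2.86, 2.73 and 2.63 CPM in I/R replicates 1, 2 and 3. The I/R libraries were level for Pdyn, where for Lct, Tdo2 and Dsp replicate 1 was far the lowest.
The 4 genes that were not called, named here after their values were seen, were Dock10 with a log2 fold change of 0.04, Igfbp5 with -0.02, Trpc6 with -0.15 and Fam163b with -0.85 (edgeR adjusted p = 0.156 for Fam163b). The median log2 fold change of the list was -1.04.

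**Figure D3:**
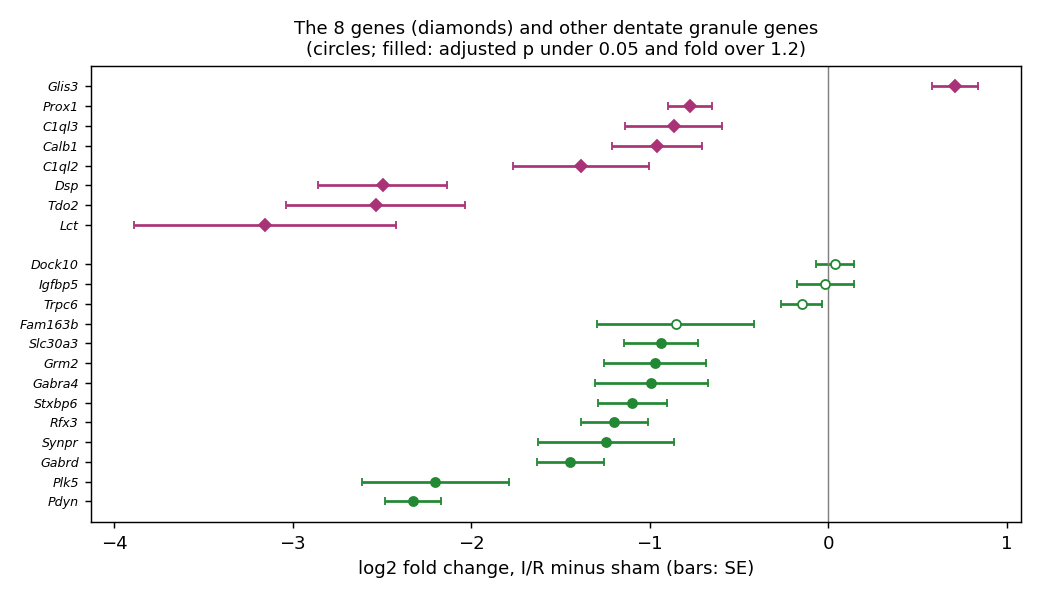
Log2 fold change, I/R minus sham (x axis; bars are the standard error of the edgeR fit), for the 8 genes (purple diamonds) and 13 of the other granule cell genes (green circles, filled where the call rule was met). Lct, Tdo2 and Dsp lie farthest to the left, from -3.15 to -2.50, Glis3 lies to the right of 0, and 9 of the 13 circles are filled, all of them left of 0.

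Of 7 genes of granule cell production, 2 fell and 1 rose, a share close to the 41.8% of all genes tested that were called in either direction. Neurog2, a proneural factor of intermediate progenitors, had 104, 107 and 91 counts in sham replicates 1, 2 and 3, compared with 17, 21 and 25 in those of I/R, and fell by 2.38 on the log2 scale (SE 0.29, edgeR adjusted p = 0.000934). Its I/R libraries were alike and all far under sham. Neurod1, needed for granule cell maturation, fell by 0.56 (SE 0.12, adjusted p = 0.00856), a call that was lost with scaling by library size only and on FPKM, where the adjusted p reached 0.0813. Sox11, a factor of immature neurons, rose by 0.85 (SE 0.11, adjusted p = 0.00134), and Dcx, the marker of migrating neuroblasts, had a log2 fold change of -0.24 and was not called (named after its value was seen). Among 3 mossy cell markers, Calb2 (calretinin) fell by 0.56 (SE 0.09, adjusted p = 0.00249) and Calcrl, also a gene of blood vessels, rose by 0.85 (SE 0.17, adjusted p = 0.00533). The call of Calb2 was lost on FPKM, with an adjusted p of up to 0.0760.

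Of 18 measured markers of CA pyramidal cells, 13 fell and none rose, where 19.9% of all genes tested were called lower. In CA1 7 of 9 fell, among them Fibcd1 by 2.0 (SE 0.34, edgeR adjusted p = 0.00303), Mpped1 by 1.22 (SE 0.21, adjusted p = 0.00356) and Nov by 1.2 (SE 0.15, adjusted p = 0.0011). In CA2 4 of 5 fell, with Rgs14, a regulator of G protein signalling, at a log2 fold change of -1.58 (adjusted p = 0.0352, up to 0.183 over the alternatives). In CA3 2 of 4 fell, with the kainate receptor gene Grik4 at -1.06 (adjusted p = 0.0206, up to 0.0983 over the alternatives). The count of 13 was 8, 6 and 7 without sham replicate 1, 2 and 3. The median log2 fold changes were -1.12 for CA1, -0.92 for CA2 and -1.01 for CA3, beside -1.04 for the other granule cell genes, and whether these lists differ was not tested.
All 9 measured genes of neurons in general fell, against 19.9% called lower among all genes tested. These 9 genes had a median log2 fold change of -1.22, and 5 fell without sham replicate 2. Their summed level was 8520 to 8938 CPM in sham against 2311 to 4762 CPM in I/R. Of 9 interneuron genes 4 fell, against the same 19.9%, with a smaller median of -0.20. Sst, which encodes somatostatin, fell by 0.57 (SE 0.12, edgeR adjusted p = 0.00705), a call lost on log2(FPKM + 0.1) and in the libraries with choroid plexus reads, with an adjusted p of up to 0.0645. The count of 4 was 1 with scaling by library size only, 2 without I/R replicate 2, 2, 1 and 2 without sham replicate 1, 2 and 3, and 1 in the libraries with choroid plexus reads.

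**Figure D4:**
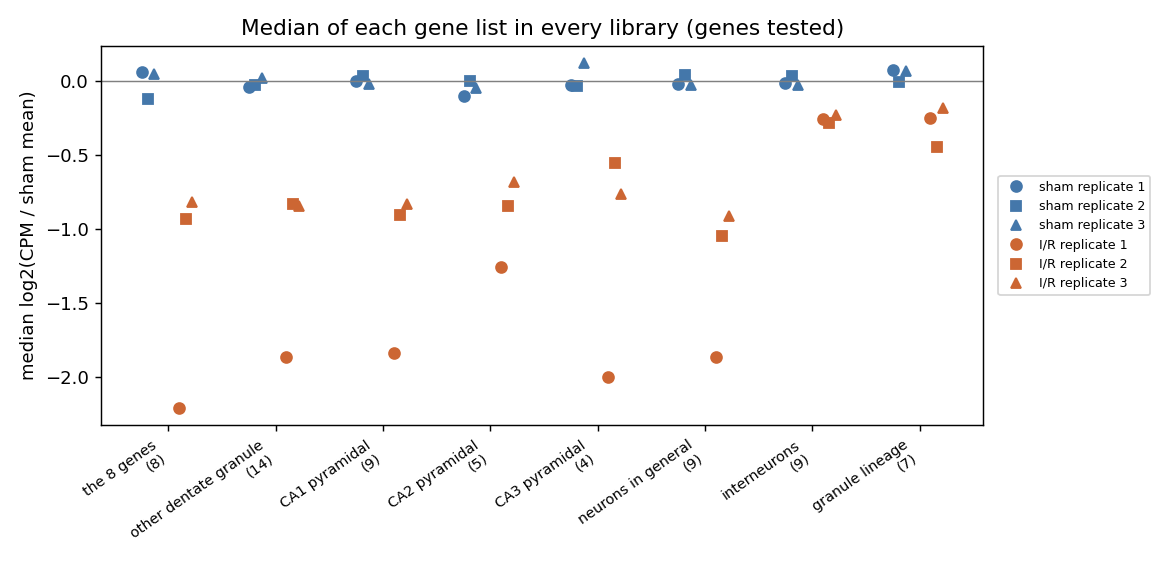
Median over the tested genes of each list of log2 of the level relative to the sham mean (y axis), in each sham (blue) and I/R (orange) library, with the number of genes below each list's name. Circles, squares and triangles are replicates 1, 2 and 3. For the 8 genes I/R replicate 1 lies at -2.21 and replicates 2 and 3 at -0.93 and -0.82, and the orange circle is also lowest for the other granule, CA1, CA2 and CA3 lists and for neurons in general.

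In each I/R library, the median over the 8 genes relative to the sham mean was -2.21, -0.93 and -0.82 on the log2 scale for replicates 1, 2 and 3. The other granule cell genes had -1.86, -0.83 and -0.85, CA1 genes -1.84, -0.91 and -0.83, and neurons in general -1.87, -1.04 and -0.91. I/R replicate 1 was thus the lowest library for neuronal genes of several kinds and not for the members alone. Of infiltrating myeloid cell markers, 4 of 4 tested were called higher. Over all genes tested, 21.8% were called higher and 19.9% lower. The myeloid median relative to the sham mean was 4.35, 2.45 and 3.20 on the log2 scale in I/R replicates 1, 2 and 3. Summed levels of this list were 3.87 to 5.17 CPM in sham against 15.8 to 54.6 CPM in I/R. A further marker, Plac8, had too few counts to be tested and was at 0 in every sham library and in I/R replicate 2. Endothelial markers were also called higher in 4 of 4, astrocyte markers in 2 of 6 with 3 called lower, and microglial markers in 3 of 6 with 2 called lower. The part of these cells in the members' values, Glis3 included, was not tested.
In the 4 libraries with choroid plexus reads the median log2 fold change of the members was -1.40 and 6 were called lower, all but C1ql2. This run left out I/R replicate 3 and sham replicate 1, and leaving out I/R replicate 3 alone gave a median of -1.43.

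Genes that act with the members were counted from short lists, to be read against the 19.9% of all genes called lower and 21.8% called higher. For C1ql2 and C1ql3, 3 of 6 tested partners and relatives fell and none rose. Nrxn3, a presynaptic neurexin, fell by 0.97 (SE 0.18, edgeR adjusted p = 0.00466), and Adgrb3, the adhesion receptor bound by C1q-like proteins, fell by 0.84 (SE 0.19, adjusted p = 0.00919). The kainate receptor gene Grik2 had a log2 fold change of -0.54 with an adjusted p of 0.0384 that ranged from 0.00251 to 0.204 over the alternatives. C1ql1 had a log2 fold change of -0.17 and was not called, and C1ql4 was at 0 to 2 counts per library.

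For Dsp, 2 of 5 tested desmosome genes were called lower and 2 higher. Ppl (periplakin) rose by 1.24 (SE 0.16, edgeR adjusted p = 0.00118) and Pkp4, a plakophilin-related protein of cell junctions, fell by 0.53 (SE 0.09, adjusted p = 0.00283), a call lost on log2(FPKM + 0.1) with an adjusted p of 0.0520. Pkp2 (plakophilin), with 48.1 ± 0.229 CPM in sham and 18.4 ± 10.9 CPM in I/R (SD, n = 3 each), had a log2 fold change of -1.39. Its edgeR adjusted p was 0.0368 and ranged from 6.89e-07 to 0.191 over the alternatives. Jup (plakoglobin) had a log2 fold change of 0.39, with an adjusted p of 0.0195 that reached 0.0835 over the alternatives.

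For Tdo2, 1 of 6 tested genes of tryptophan breakdown was called lower and none higher. Ido2, which opens the same pathway, had 1.96 ± 0.266 CPM in sham against 0.799 ± 0.477 CPM in I/R (SD, n = 3 each), with an edgeR adjusted p of 0.0479 that reached 0.131 over the alternatives. Qprt, an enzyme of NAD synthesis, had a log2 fold change of 1.26 and was not called (adjusted p = 0.0706). Kyat1 had -0.11 and was not called, and Ido1 was at 0 to 10 counts per library.

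For Calb1, 5 of 7 tested calcium-binding genes fell and none rose. The calmodulin gene Calm3 fell by 1.48 on the log2 scale (SE 0.26, edgeR adjusted p = 0.00372), and Calb2 was given above. Calm2 had a log2 fold change of -0.78 with an adjusted p of 0.0230, and its call was lost on log2(FPKM + 0.1) and without I/R replicate 2 or sham replicate 1, 2 or 3, the adjusted p reaching 0.0790. S100b, an astrocyte gene, had -0.16 and was not called. For Prox1 and Glis3, 2 of 7 tested transcription factors of the same families or of hippocampal neurons fell and none rose, against the background of 19.9% called lower. Zbtb20, a factor of hippocampal neurons, fell by 0.94 (SE 0.11, adjusted p = 0.00091), and Bcl11b, also made by granule cells, fell by 1.40 (SE 0.35, adjusted p = 0.0146), a call lost without the count filter (adjusted p = 0.0998). The relatives Glis1, Glis2 and Prox2 had log2 fold changes of 0.61, 0.18 and 0.12 and were not called.

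The genes whose profile over the 6 libraries lay nearest to the median profile of the members were Pgm2l1, Rbfox1, Atp2b1, Etv1 and Slco1a4. Likeness was the root mean square difference of log2 CPM, each centred on its sham mean, over 14048 genes with a mean of at least 1 CPM, and it was 0.0417 for Pgm2l1 and 0.0681 for Slco1a4. Of the members themselves, Calb1 at 0.228 and C1ql2 at 0.244 were nearest to that median profile and Glis3 at 1.54 and Lct at 1.90 were farthest. The named genes were selected for this closeness, so their distances are not compared with those of the members.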

How the data were processed

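Raw read counts and FPKM values per gene and library were deposited by the authors in 1 table for 6 libraries. Per the study's methods, reads were aligned with TopHat2 and counted with HTSeq. The submitters' processing notes list Bowtie 0.12.2 and mm8, while the gene identifiers and coordinates in the table are those of a BALB/cJ annotation, although the mice were C57BL/6. The table holds 41386 genes, of which 12437 were at 0 in all libraries, and 4 lines that were split in the file were rejoined. Columns of the authors' own comparison (fold change, p-value, adjusted p, call) and of group means were not used.

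The test of the counts was that of edgeR 4.0.16, run under R 4.3.3 (TMM scaling, filterByExpr, robust quasi-likelihood fit, I/R against sham, no covariate), with p-values adjusted by Benjamini-Hochberg over the 18569 genes tested. Scaling factors were 1.06 to 1.15 in I/R and 0.908 to 0.920 in sham. DESeq2 1.42.0 and limma 3.58.1 on log2(FPKM + 1) and log2(FPKM + 0.1) were alternatives. The fit was tested on simulated data. P-values measure the spread between 3 pools per group only. The members and all gene lists were chosen with earlier results of these data known. Named were the members, up to 4 called genes with the largest change of each other list, any gene of the pathway lists, the 5 nearest profiles and Ttr. Dock10, Igfbp5, Trpc6, Fam163b, Dcx and Plac8 fall outside this rule and were named after their values were seen. Genes of these lists that are counted but not named or drawn are not reported here. Maml2, Map3k15, Map2, Ly6c1 and Ly6c2 were not analysed here. Marker lists not described above gave 2 lower and 0 higher of 6 (oligodendrocytes), 1 and 2 of 7 (striatum), 1 and 0 of 4 (cortex) and 1 and 0 of 10 (choroid plexus). Over all genes tested, 19.9% were called lower and 21.8% higher. At an unadjusted p under 0.05, and with DESeq2, 1 oligodendrocyte marker was higher, and for cortex and choroid plexus 0 were. Promoter windows came from RefSeq (GRCm38.p6), where 7 of 8 members were matched, and Calb1 is named only. Coordinates of the table and of RefSeq belong to different builds.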

Additional observations from a re-analysis of the deposited data

How the results depend on the processing

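No member's log2 fold change, nor the members' median, changed sign under the alternatives run. A count of genes called lower has no direction that could reverse. Some uncalled genes of the other lists did change sign, among them Igfbp5 with a log2 fold change from -0.21 to 0.25. Scaling by library size only shifted the median log2 fold change of all genes from 0.03 to 0.28 and that of the members to -0.93. The count of members called lower (7) was 3 without the count filter, 4 on log2(FPKM + 0.1), 4 at a fold over 2, and 4 to 7 with 1 library left out. That of CA pyramidal genes (13) was 8, 7 and 8 under these settings and 6 to 15 with 1 library left out. Interneuron genes (4) gave 1 with library size only, 1 on log2(FPKM + 1), 0 on log2(FPKM + 0.1), 1 in the libraries with choroid plexus reads, 0 at a fold over 2, and 1 to 4 with 1 library left out. Granule lineage genes (2) gave 1 with library size only, 1 on log2(FPKM + 1), 1 on log2(FPKM + 0.1), 1 at a fold over 2, and 2 with any 1 library left out. Genes of neurons in general (9) gave 5 to 9 with 1 library left out, and other granule cell genes (10) 7 to 10 over all alternatives. The members' median ranged from -1.43 to -0.85, the latter without I/R replicate 1. C1ql3 lost its call with library size only, without the count filter, on both FPKM scales, and without I/R replicate 2 or any 1 sham library. Lct lost its call without the count filter. The causes were not tested.

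Same-numbered libraries did not deviate together: the correlations of their deviations from the group means were -0.139, 0.0426 and -0.236 for replicates 1, 2 and 3. No pairing by number was seen, but with 3 libraries per group this check cannot exclude one. The largest of all correlations was 0.330, between I/R replicate 3 and sham replicate 1, the libraries with low Ttr counts (810 and 385). The part of choroid plexus RNA in that correlation was not tested. With the replicate number as a block, 7 members were called lower and their median log2 fold change was -1.28.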
